A study of Homo sapiens with 12 samples.

Results

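The mRNAs of the core factors of nonsense-mediated decay were followed in HEK293T cells given an inhibitor of mRNA decapping and then a block of transcription. The set held 9 genes, UPF1, UPF2, UPF3A, UPF3B, SMG1, SMG5, SMG6, SMG8 and SMG9, taken by gene symbol. All 9 were found among the 23615 symbols that both expression tables list. HEK293T is an established line of human embryonic kidney origin with a stably expressed SV40 antigen, here between passages 10 and 20. Cells were held for 18 h with CP25, a macrocycle directed at the decapping enzyme DCP2, at 2 μM, or with vehicle, which was peptide storage buffer. Actinomycin D, which stops transcription, was then used at 5 μg/mL in every group, and poly(A) RNA was sequenced. The 12 libraries formed 4 groups of 3, which were CP25 at 2 h of actinomycin D, vehicle at 2 h, CP25 at 0 h and vehicle at 0 h. Libraries are named here by their group and the replicate number in the labels. The labels do not say whether replicates were separate cultures, so a p-value here rests on library-to-library spread that could be technical.

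Nonsense-mediated decay removes mRNAs on which ribosomes stop too early, and it also sets the level of many normal mRNAs. UPF1 is the RNA helicase at its centre, UPF2 and the paralogs UPF3A and UPF3B connect UPF1 with exon junction complexes, and the kinase SMG1, held in check by SMG8 and SMG9, phosphorylates UPF1. Phosphorylated UPF1 recruits the endonuclease SMG6 and the adaptor SMG5, which leads to deadenylation and to decapping by DCP2. The mRNAs of several of these factors are known to be substrates of the pathway themselves.

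Levels are in FPKM, fragments scaled to transcript length and to the mapped fragments of a library, so they can be compared between genes per length but are shares of a library and not amounts per cell. In bulk RNA of this kind, fewer cells and less RNA per cell cannot be told apart. Depth, estimated in 10⁶ fragments, was 21.8 to 29.1 in the 2 h libraries and 13.2 to 22.0 in the 0 h libraries, the lowest being the vehicle library numbered 1 at 0 h. By these estimates UPF3A rested on the fewest fragments, 288 to 732 per library, and SMG1 on 4092 to 6460. DCP2 itself averaged 21.6 ± 2.88 FPKM in CP25 and 22.0 ± 1.56 FPKM in vehicle at 2 h, and 21.8 ± 0.321 FPKM in CP25 and 22.5 ± 0.465 FPKM in vehicle at 0 h (SD, n = 3 each). All 8 marker genes listed for HEK293T averaged at least 1 FPKM over the 12 libraries, among them LIN28B at 48.2 FPKM in CP25 and 48.3 FPKM in vehicle at 0 h. Of 11 markers of other cell types 2 did, the collagens COL1A1 and COL3A1, while CD3E and UMOD were listed at 0 in all libraries. The HEK293T marker PAX2 was low, at 0.931 FPKM in CP25 and 0.883 FPKM in vehicle at 2 h, and 1.73 FPKM in CP25 and 1.85 FPKM in vehicle at 0 h. COL1A1 exceeded PAX2 in each group, with means of 2.98 to 3.51 FPKM.

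The genes differ in build, as given by GENCODE 29 on GRCh38, which is not the hg19 build behind the expression values. SMG8 lies on chr17:59209400-59215247 (plus strand) and has 5 exons, or 1.34 exon junctions per kilobase of coding sequence, fewer than all but 6.34% of the 10844 genes with a model. The other 8 hold 4.23 (SMG6) to 8.32 (SMG9) junctions per kilobase, against a median of 6.54. Junctions were counted over the whole transcript, UTRs included, and divided by the coding length. SMG8 also has the shortest 3′ UTR of the 9 at 237 bases, and SMG1 and SMG9 the longest at 4716 and 3604 bases, against a median of 1156. The helicase gene UPF1 (chr19:18831938-18868236, plus strand) stands out by base composition, with G or C at 80.4% of the last codon positions against a median of 57.9%.

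TATTTAT, an AU-rich heptamer found in many short-lived mRNAs, was searched on the transcript strand of the 3′ UTRs and was present in 3 of the 9. These 25-base windows are shown because the 3 genes took opposite places after the block of transcription, SMG8 and UPF1 low and UPF3A high. The heptamer is in capitals, each window is on the plus strand of GRCh38, and all 3 lie in the last part of the gene, in its 3′ UTR.
SMG8, chr17:59215164-59215188: tattgttgaTATTTATtgtaaacgt
UPF1, chr19:18867925-18867949: agggactctTATTTATtcccattgc
UPF3A, chr13:114305429-114305453: tggtaggaaTATTTATcagagttca
The heptamer was held by 11.2% of genes whose 3′ UTR was of similar length to that of SMG8, taken as a ratio of lengths of at least 0.8, by 39.0% for UPF1 and by 24.4% for UPF3A. The longer form TTATTTATT, which contains the heptamer, was found in UPF1 alone of the 9, and in 8.68% of genes with a 3′ UTR of similar length. The pentamer ATTTA occurred 13 times in the long 3′ UTR of SMG1, where genes of similar 3′ UTR length had a median of 11. It was not found in that of SMG5, while 84.2% of genes of similar 3′ UTR length held it. These matches describe sequence and do not mark a bound site.

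Before the block, the factors spanned a wide range of abundance, with much the same order in both treatments. UPF3B was the most abundant at 62.1 ± 1.54 FPKM in CP25 and 62.3 ± 2.62 FPKM in vehicle at 0 h (SD, n = 3). SMG5 followed at 48.1 ± 3.95 FPKM in CP25 and 49.4 ± 2.79 FPKM in vehicle, and UPF1 at 35.7 ± 0.992 FPKM in CP25 and 37.3 ± 2.75 FPKM in vehicle. These 3 did not overlap with each other or with the genes below them in any library of a group. UPF2, SMG8, SMG9 and SMG1 lay between 14.4 and 20.2 FPKM on average, and most neighbours in that stretch overlapped. SMG6 averaged 9.56 ± 0.254 FPKM in CP25 and 9.87 ± 0.285 FPKM in vehicle. UPF3A was the least abundant at 7.50 ± 0.237 FPKM in CP25 and 7.73 ± 1.25 FPKM in vehicle, below SMG6 in every library of its group. In rank, UPF3B lay above 88.7% of expressed genes in CP25 and 89.0% in vehicle, and UPF3A above 34.9% in CP25 and 35.4% in vehicle.

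**Figure D1:**
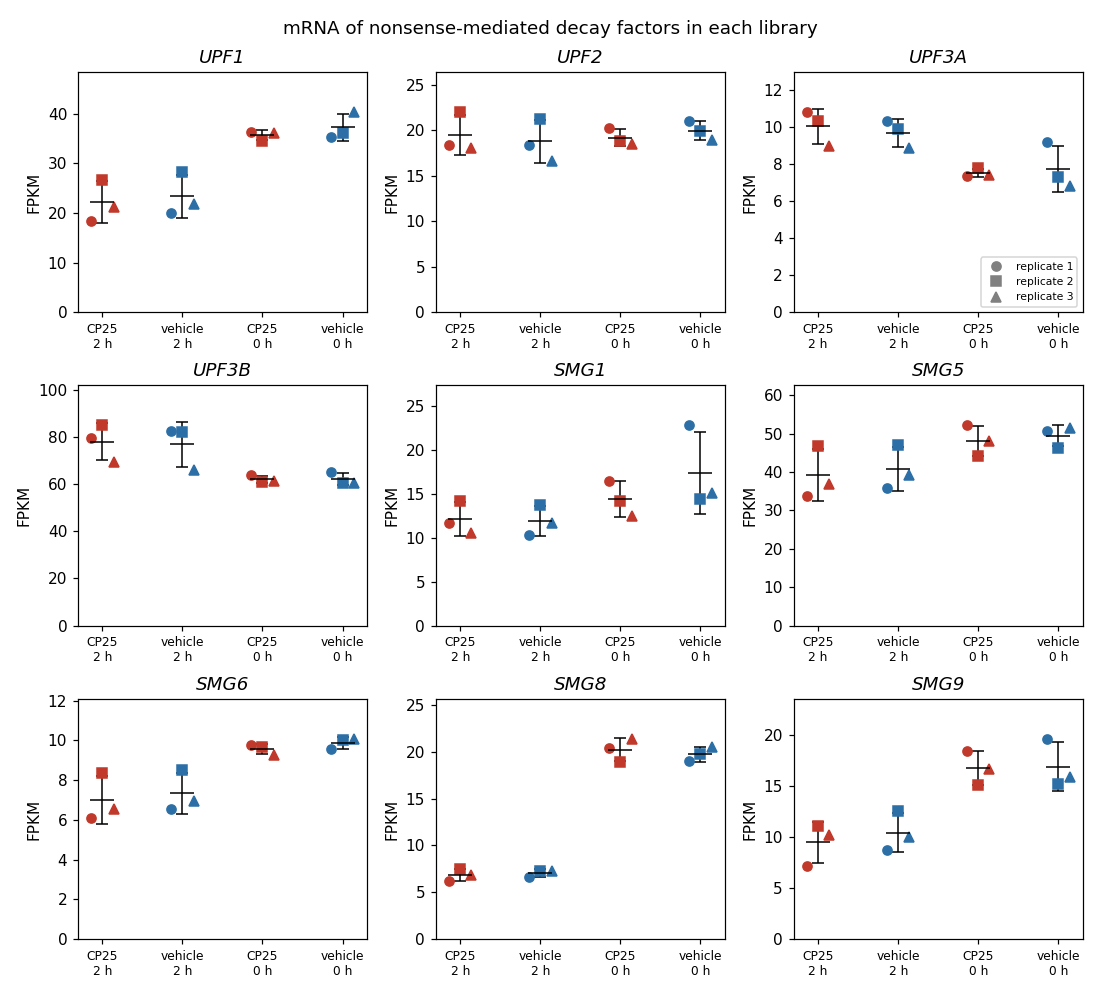
FPKM of each of the 9 mRNAs (vertical axis, from 0) in the 12 libraries, by group along the horizontal axis, with CP25 in red and vehicle in blue. Symbols are libraries by replicate number, and bars are the mean and SD of 3 libraries. SMG8 has its 2 h libraries at 6.25 to 7.46 FPKM, below all 0 h libraries at 18.9 to 21.4 FPKM, and UPF3B has its 2 h libraries above its 0 h libraries.

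After 2 h of actinomycin D the order was different at its lower end. SMG8 was now the least abundant, at 6.84 ± 0.607 FPKM in CP25 and 7.04 ± 0.388 FPKM in vehicle, and overlapped with SMG6. UPF3A had moved above SMG6 in every library of its group. UPF1 overlapped with UPF2, while UPF3B and SMG5 kept the first and second places.

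The question of the 2 h libraries is which mRNAs outlast the average transcript once synthesis has stopped. The 2 times are in tables taken as scaled separately, so the change is described with no test, as a log2 ratio of FPKM + 1 and as its distance from the median gene. The median of the 12183 genes with at least 1 FPKM on average was -0.16 in CP25 and -0.18 in vehicle. The 9 factors had a median of -0.30 in CP25 and -0.39 in vehicle, and they lay far apart. A ratio below -0.5 was held by 3 of the 9 in each treatment, the same 3 (UPF1, SMG8 and SMG9), against 23.8% of all genes in CP25, 24.8% in vehicle and 21.2% in both. A ratio above 0 was held by 3 of the 9 in CP25, against 34.1% of genes, and by 2 in vehicle, against 32.0%. Those 2, UPF3A and UPF3B, were above 0 in both treatments, as were 28.5% of genes. As a group the factors were thus spread over the range of other genes.

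Among the UPF proteins, UPF1 stood well below its 0 h level. In CP25 it had 18.4, 26.8 and 21.2 FPKM at 2 h, against 36.4, 34.6 and 36.2 FPKM at 0 h. In vehicle it had 20.0, 28.2 and 21.9 FPKM at 2 h, against 35.3, 36.1 and 40.4 FPKM at 0 h. No 2 h library reached a 0 h library in either treatment, as for 39.5% of all genes. The mean FPKM of UPF1 stood at 61.9% of its 0 h level in CP25 and 62.7% in vehicle, a quotient of shares and not of amounts. The distance of its log2 ratio from the median gene was -0.52 in CP25, with 15.6% of genes lower, and -0.49 in vehicle, with 16.5% lower.

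UPF2, the bridge between UPF1 and UPF3, kept its share. Its libraries held 18.3, 22.0 and 18.0 FPKM at 2 h, against 20.2, 18.8 and 18.5 FPKM at 0 h in CP25. They held 18.4, 21.3 and 16.7 FPKM at 2 h, against 21.0, 19.9 and 18.9 FPKM at 0 h in vehicle. The times overlapped in both treatments, at 102% of the 0 h level in CP25 and 94.1% in vehicle.

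Both UPF3 paralogs took a larger share of the poly(A) RNA at 2 h. UPF3B, the X-linked paralog and the stronger activator of decay, held 79.8, 85.0 and 69.4 FPKM at 2 h, against 63.9, 61.0 and 61.5 FPKM at 0 h in CP25. In vehicle it held 82.5, 82.3 and 66.1 FPKM at 2 h, against 65.3, 60.7 and 60.8 FPKM at 0 h. All 2 h libraries lay above all 0 h libraries in both treatments, which was true of 11.6% of genes. UPF3A, the weaker paralog, held 10.8, 10.3 and 8.98 FPKM at 2 h, against 7.34, 7.78 and 7.40 FPKM at 0 h in CP25. In vehicle it held 10.3, 9.86 and 8.85 FPKM at 2 h, against 9.15, 7.27 and 6.78 FPKM at 0 h. The times did not overlap in CP25, where 15.5% of genes had all 2 h libraries above, and in vehicle the 0 h library numbered 1 lay within the 2 h range. UPF3A stood at 134% of its 0 h level in CP25 and 125% in vehicle, and UPF3B at 126% in CP25 and 124% in vehicle. Their log2 ratios exceeded those of 91.4% to 95.1% of genes.

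In the SMG1 kinase complex, the regulatory subunit SMG8 showed the lowest ratio of the 9. In CP25 it held 6.25, 7.46 and 6.82 FPKM at 2 h, against 20.3, 18.9 and 21.4 FPKM at 0 h. In vehicle it held 6.59, 7.22 and 7.31 FPKM at 2 h, against 19.0, 19.7 and 20.5 FPKM at 0 h. The 2 times were wide apart in every library, and SMG8 stood at 33.9% of its 0 h level in CP25 and 35.7% in vehicle. The log2 ratio was -1.44 in CP25 and -1.37 in vehicle, with 320 of 12183 genes lower in CP25 (2.63%) and 388 lower in vehicle (3.18%). A ratio below -1 was found among the 9 for SMG8 alone, and for 7.22% of genes in CP25, 7.26% in vehicle and 6.16% in both. In GENCODE 29 SMG8 shares 422 exonic bases on the same strand with a model named AC099850.2, which the tables do not name, so reads of that stretch are uncertain.

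Its partner SMG9 was also lower at 2 h, by a smaller amount. In CP25 it held 7.19, 11.1 and 10.2 FPKM at 2 h, against 18.5, 15.1 and 16.7 FPKM at 0 h. In vehicle it held 8.74, 12.6 and 10.0 FPKM at 2 h, against 19.6, 15.2 and 15.9 FPKM at 0 h. The times did not overlap in either treatment, the 2 h libraries being lower, as for 39.5% of all genes. SMG9 stood at 56.6% of its 0 h level in CP25 and 61.7% in vehicle.

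SMG1, the kinase itself, held 11.7, 14.2 and 10.5 FPKM at 2 h, against 16.5, 14.2 and 12.5 FPKM at 0 h in CP25. In vehicle it held 10.4, 13.8 and 11.6 FPKM at 2 h, against 22.8, 14.4 and 15.1 FPKM at 0 h. The times overlapped in CP25 and did not in vehicle, where 46.0% of genes had all 2 h libraries below. SMG1 stood at 84.3% of its 0 h level in CP25 and 68.4% in vehicle. The vehicle library numbered 1 at 0 h stood apart at 22.8 FPKM, and without it the log2 ratio in vehicle was -0.29 instead of -0.49. Partial copies of SMG1 on the same chromosome may share its reads. The copy listed as LOC100506060 (SMG1P7) averaged 1.98 FPKM in CP25 and 1.96 FPKM in vehicle at 2 h, and 3.27 FPKM in CP25 and 3.80 FPKM in vehicle at 0 h. Its highest value in any library was 5.33 FPKM.

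The effectors SMG5 and SMG6 lay nearer to the median gene than UPF1, SMG8 and SMG9, the distance of SMG5 being -0.14 in CP25 and -0.10 in vehicle and that of SMG6 -0.25 in CP25 and -0.21 in vehicle. SMG6, which cuts the RNA, ranged from 6.09 to 8.38 FPKM at 2 h against 9.27 to 9.74 FPKM at 0 h in CP25, and from 6.56 to 8.50 FPKM at 2 h against 9.54 to 10.1 FPKM at 0 h in vehicle. No library overlapped between the times in either treatment, the 2 h libraries being lower, as for 39.5% of all genes. SMG6 stood at 73.3% of its 0 h level in CP25 and 74.3% in vehicle. SMG5 ranged from 33.8 to 46.8 FPKM at 2 h against 44.2 to 52.1 FPKM at 0 h in CP25, and from 35.9 to 47.1 FPKM at 2 h against 46.2 to 51.5 FPKM at 0 h in vehicle. Its times overlapped, and it stood at 81.3% of its 0 h level in CP25 and 82.5% in vehicle. The exons of SMG6 overlap HIC1 on the opposite strand over 22.9% of their bases. HIC1 averaged 0.419 FPKM, and whether counting used strand is not given in the sources used here.

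Over all 9 factors, all 3 libraries at 2 h lay below all 3 at 0 h in 4 genes in CP25 and 5 in vehicle, against 44.0% of all genes in CP25 and 46.0% in vehicle. The 4 of CP25 (UPF1, SMG6, SMG8 and SMG9) were below in both treatments, as were 39.5% of genes. All 3 libraries at 2 h lay above all 3 at 0 h in 2 of the factors in CP25 and 1 in vehicle, against 15.5% in CP25 and 15.0% in vehicle. The median log2 value of a library at 2 h minus that at 0 h was -0.335 on average, and centring each library on its median takes this shift out of every ratio. On that scale the median gene comes to 0.17, SMG5 comes to 0.03 in CP25 and 0.06 in vehicle and SMG1 in CP25 to 0.10, so the side of 0 for these depends on the scaling, as it does for UPF2 in vehicle. SMG8 comes to -1.11 in CP25 and -1.02 in vehicle and is then the only factor below -0.5, against 11.1% of genes in CP25 and 10.7% in vehicle. UPF1 comes to -0.36 in CP25 and -0.32 in vehicle, and SMG9 to -0.45 in CP25 and -0.31 in vehicle.

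**Figure D2:**
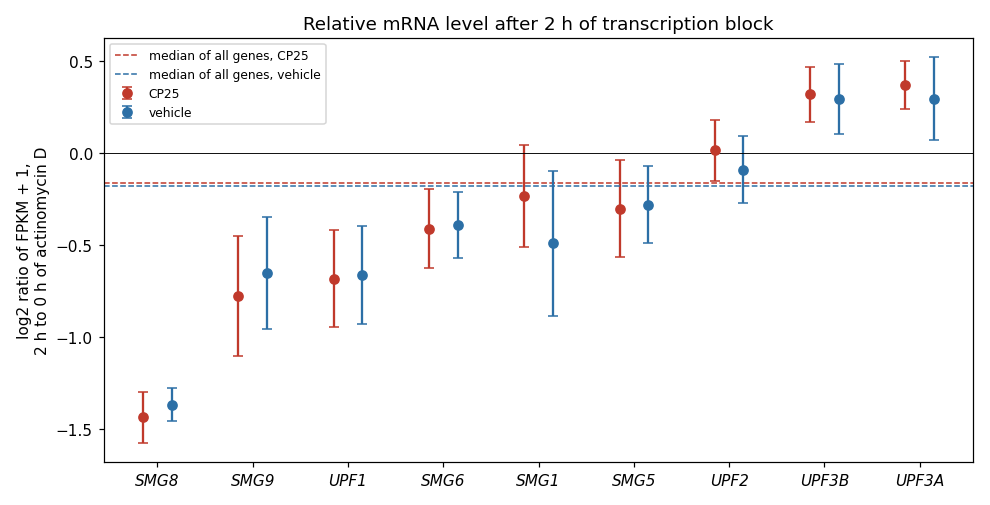
Mean log2 ratio of FPKM + 1 at 2 h to 0 h of actinomycin D (vertical axis) for the 9 mRNAs, in CP25 (red) and vehicle (blue), ordered by their mean. Bars are the SD of the difference, and dashed lines the median of 12183 genes, -0.16 in CP25 and -0.18 in vehicle. SMG8 lies lowest at -1.44 in CP25 and -1.37 in vehicle, and UPF3A highest at 0.37 in CP25 and 0.30 in vehicle.

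At 2 h the library numbered 2 had the highest value of its group in both treatments for 6 of the 9 factors (UPF1, UPF2, SMG1, SMG5, SMG6 and SMG9), against 31.3% of all genes. UPF1 in that library was 1.35 times the mean of the other 2 in CP25 and 1.35 times in vehicle, and SMG8 1.14 times in CP25 and 1.04 times in vehicle. Without both libraries numbered 2 at 2 h, the log2 ratio of UPF1 was -0.82 in CP25 and -0.80 in vehicle, that of SMG8 -1.49 in CP25 and -1.38 in vehicle, and that of UPF3B 0.26 in CP25 and 0.24 in vehicle. SMG6 came to -0.53 in CP25 and -0.49 in vehicle, and the median of the 9 to -0.43 in CP25 and -0.49 in vehicle. Their part in the values of the 9 was not tested further.

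A ratio of the FPKM of 2 genes inside a library is free of any scale factor, and so, apart from the added 1, is the ratio of FPKM + 1, on which partners of the pathway were tested between the times. The pairs were UPF3A to UPF3B, SMG5 to SMG6, SMG8 to SMG9 and UPF1 to UPF2, tested by exact two-sided permutation of the time labels within each treatment, with 400 labellings and Benjamini-Hochberg adjustment over the 4 pairs. The pairs were chosen with earlier results of these data known. How often other gene pairs reach so small a p was not tested, so a small p is not shown to be particular to these partners. This test takes the libraries of CP25 and vehicle as independent, whereas those of the same number, above all 1 and 2, deviated together at 2 h. With same-numbered libraries of a time kept together, an alternative added after seeing the data, 20 labellings remain, the smallest p is 0.1 and no pair can be called. UPF1 was lower relative to UPF2 at 2 h. The FPKM ratio was 1.01, 1.22 and 1.18 at 2 h against 1.8, 1.84 and 1.96 at 0 h in CP25, and 1.09, 1.33 and 1.32 at 2 h against 1.68, 1.82 and 2.14 at 0 h in vehicle. The mean log2 change at 2 h was -0.64, a fold of 0.643, with -0.70 in CP25 and -0.57 in vehicle (exact permutation p = 0.005, the smallest that 400 labellings allow, adjusted p = 0.01). With same-numbered libraries kept together it was 0.1 (adjusted 0.2).

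SMG8 was lower relative to SMG9 in the same way. The FPKM ratio was 0.869, 0.672 and 0.671 at 2 h against 1.1, 1.25 and 1.28 at 0 h in CP25, and 0.754, 0.575 and 0.729 at 2 h against 0.966, 1.30 and 1.29 at 0 h in vehicle. SMG8 was thus the less abundant partner in all 6 libraries at 2 h. The mean change was -0.69, a fold of 0.621 (exact permutation p = 0.005, again the smallest possible, adjusted p = 0.01), and 0.1 (adjusted 0.2) with same-numbered libraries kept together. In both pairs all 2 h libraries lay below all 0 h libraries of the same treatment, and without both libraries numbered 2 at 2 h the changes were -0.69 for UPF1 to UPF2 and -0.60 for SMG8 to SMG9 (adjusted exact permutation p = 0.02 each).

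The paralogs UPF3A and UPF3B kept their proportion within the error. UPF3A was at 0.111 to 0.14 of the FPKM of UPF3B in all 12 libraries, and the mean log2 change was 0.03, with 0.05 in CP25 and 0.00129 in vehicle (exact permutation p = 0.62, adjusted p = 0.62). SMG5 was higher relative to SMG6 at 2 h by 0.11 on the log2 scale, a fold of 1.08 (exact permutation p = 0.02, adjusted p = 0.0267), which came to p = 0.2 (adjusted 0.267) with same-numbered libraries kept together. Its FPKM ratio was 5.48 to 5.66 at 2 h and 4.57 to 5.35 at 0 h, but on the FPKM + 1 scale of the test the libraries overlapped, and without the added 1 the log2 change was 0.15. That call was lost without the CP25 library numbered 2 at 2 h (adjusted exact permutation p = 0.0867) or numbered 3 (0.08), and without the vehicle library numbered 2 or 3 at 2 h (0.0667 each).

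**Figure D3:**
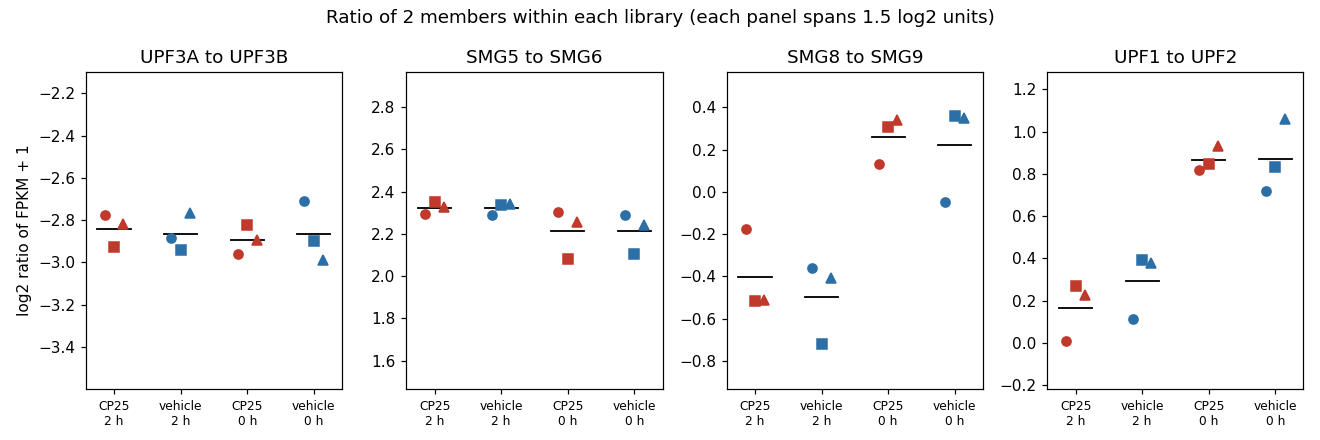
Log2 ratio of FPKM + 1 of 2 factors within each library (vertical axis, 1.5 log2 units in each panel), by group. Symbols are libraries, circles for replicate 1, squares for 2 and triangles for 3, with CP25 in red and vehicle in blue, and lines are group means. UPF1 to UPF2 and SMG8 to SMG9 are lower in all 2 h libraries than in the 0 h libraries of the same treatment, and UPF3A to UPF3B shows no such gap.

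Relative levels after the block were also set beside the exon junctions of the whole transcript, UTRs included, per kilobase of coding sequence. Genes were split into 5 equal groups by junctions per kilobase, a property chosen after the changes had been seen, and the groups are described with no test. The median of the 2 h to 0 h log2 ratio was -0.65 in the group with the fewest junctions and 0.04 in the group with the most. SMG8 was the only factor in the lowest group and had a mean ratio over both treatments of -1.40, further down than that group's median. UPF2, SMG1 and SMG6 fell in the second group, with a median of -0.30, and SMG9 in the fourth, with -0.03, although its own ratio was -0.71. UPF1, UPF3A, UPF3B and SMG5 shared the middle group, with a median of -0.12, at ratios of -0.67 for UPF1 and 0.33 for UPF3A. Genes with similar junction density thus lay more than 1 log2 unit apart.

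**Figure D4:**
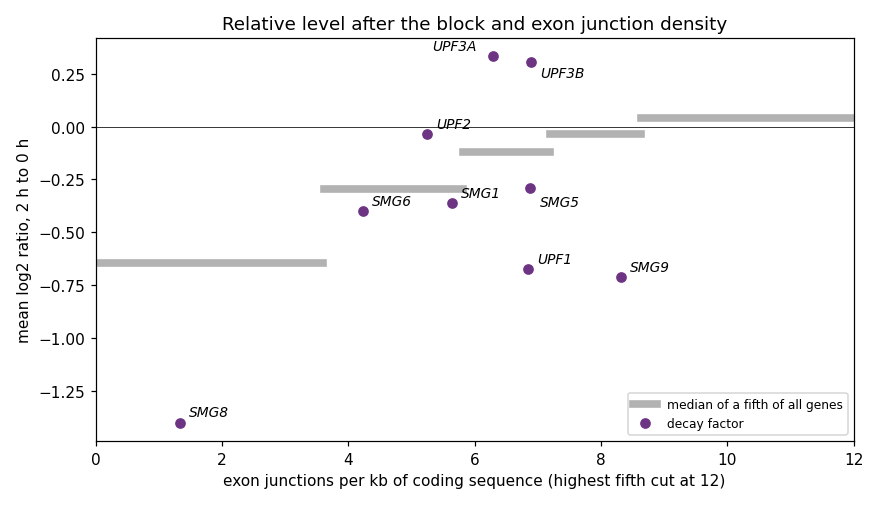
Mean log2 ratio of 2 h to 0 h over both treatments (vertical axis) against exon junctions per kilobase of coding sequence (horizontal axis, cut at 12) for the 9 factors. Grey bars span 5 equal groups of 10844 genes and lie at each group's median, from -0.65 at the fewest junctions to 0.04 at the most. SMG8 lies alone at 1.34 junctions per kilobase and -1.40, while UPF1 and UPF3A lie apart at similar density.

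Proteins that work with the core factors were described by the same ratio, with no gene tested over time. The exon junction complex and its partners, which mark spliced mRNA for the UPF proteins, had 10 of 10 genes expressed, with medians of 0.06 in CP25 and 0.10 in vehicle. Of these, 6 lay above 0 in each treatment, against 34.1% of all genes in CP25 and 32.0% in vehicle. In each treatment 1 lay below -0.5, against 23.8% of genes in CP25 and 24.8% in vehicle. MAGOH, a core subunit, stood at 132% of its 0 h level in CP25 and 127% in vehicle. SAP18 stood at 128% in CP25 and 123% in vehicle, and ACIN1 at 87.1% in CP25 and 86.0% in vehicle. The gene below -0.5 was WIBG (PYM1), which takes the complex off translated mRNA, at 48.7% in CP25 and 52.5% in vehicle.

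Factors of translation termination and of cap and poly(A) binding had 8 of 8 genes expressed, with a median of 0.23 in each treatment. In each treatment 6 of 8 lay above 0, against 34.1% of all genes in CP25 and 32.0% in vehicle. PABPC1, the cytoplasmic poly(A)-binding protein, stood at 139% in CP25 and 129% in vehicle, and the cap-binding subunit NCBP2 at 135% in CP25 and 141% in vehicle. The scaffold EIF4G1 stood at 94.1% in CP25 and 90.8% in vehicle. GSPT2, the less abundant form of the release factor eRF3, stood at 51.0% in CP25 and 49.0% in vehicle.

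Assembly and accessory factors had 13 of 13 genes expressed, with medians of -0.10 in CP25 and -0.12 in vehicle. A ratio below -0.5 was found for 2 of 13 in CP25 and 4 of 13 in vehicle, against 23.8% of all genes in CP25 and 24.8% in vehicle. TELO2, which helps to build SMG1 and related kinases, stood at 53.0% in CP25 and 55.0% in vehicle, and the helicase DHX34 at 66.0% in each. RUVBL1, an ATPase of the same assembly machinery, stood at 125% in CP25 and 126% in vehicle, and the phosphatase subunit PPP2CA at 104% in CP25 and 99.8% in vehicle.

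Of 13 reported target mRNAs of the pathway, 12 passed the expression filter, with medians of -0.45 in CP25 and -0.38 in vehicle. A ratio below -0.5 was found for 6 of 12 in CP25 and 5 of 12 in vehicle, against 23.8% of all genes in CP25 and 24.8% in vehicle. GADD45B, a stress gene, stood at 14.8% of its 0 h level in CP25 and 12.3% in vehicle, and the host gene SNHG12 at 29.5% in CP25 and 28.7% in vehicle. BAG1 stood at 97.3% in CP25 and 98.9% in vehicle, and the host gene ZFAS1 at 104% in CP25 and 118% in vehicle.

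The comparison of CP25 with vehicle asks whether a compound aimed at DCP2 alters the mRNAs of these factors. None of the 9 passed limma's test with Benjamini-Hochberg adjustment at 0.05, neither at 2 h nor at 0 h nor for the difference of the effects between the times. Across all genes 0.00851% were called at 2 h, which is the single gene SNORD76 (a small nucleolar RNA, lower in CP25, named after its values were seen), 0% at 0 h and 0% for the difference. At an unadjusted p under 0.05, limma gave 0 of the 9 in each comparison, against 0.741% of genes at 2 h, 0.712% at 0 h and 1.26% for the difference. The adjusted p of the 9 was about 1 throughout. Such shares are smaller than a threshold of 0.05 gives with no effect, so this fit, which takes the libraries as unpaired, was over-cautious. With the replicate number as a block, 814 genes at 2 h, 857 at 0 h and 1284 for the difference were below 0.05 in limma before adjustment. Among the 9 this held for SMG1 at 0 h alone, where pairing is not settled.

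At 2 h the log2 changes of the 9 ran from -0.13 for SMG9 (95% interval -0.53 to 0.27) to 0.05 for UPF2 (-0.21 to 0.31), with a median of -0.04 against 0.00558 for all genes. In FPKM + 1 the intervals reached down to 0.691 of vehicle, for SMG9, and up to 1.26 times vehicle, for SMG1. SMG8 had a change of -0.04 (-0.24 to 0.16), UPF1 of -0.08 (-0.45 to 0.30) and UPF3B of 0.02 (-0.24 to 0.28). CP25 and vehicle libraries overlapped for each of the 9, and the share of all genes for which they did was not counted.

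At 0 h of actinomycin D, after 18 h with the compound, 8 of the 9 changes lay below 0, as did 6496 of 12365 genes, with a median of -0.04 against -0.00365 for all genes. The intervals were narrow for UPF3B (-0.14 to 0.13 on the log2 scale) and SMG6 (-0.17 to 0.09). SMG1 had the change furthest from 0, at -0.24 (-0.65 to 0.18), with an adjusted p of about 1 in limma. Its values were 16.5, 14.2 and 12.5 FPKM in CP25 and 22.8, 14.4 and 15.1 FPKM in vehicle. Without the vehicle library numbered 1, the shallowest of the 12, the change was -0.04. In the authors' deposited table SMG1 at 0 h had a p-value of 0.01305, the only one of the 9 below 0.05 at either time, and it came to 1 after adjustment over all genes tested. Of all genes tested, 88 of 12365 at 0 h and 51 of 11745 at 2 h had a deposited p-value below 0.05.

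The difference of the CP25 effects, 2 h minus 0 h, measures whether CP25 changed how the share of an mRNA moved over the block. It ran from -0.12 for SMG9 (-0.61 to 0.36) to 0.26 for SMG1 (-0.26 to 0.78). For SMG8, the factor with the lowest 2 h level relative to 0 h, it was -0.07 (-0.30 to 0.16), which bounds a change of its 2 h to 0 h ratio at 0.815 to 1.11 times. For UPF1 it was -0.02 (-0.44 to 0.40) and for UPF2 0.11 (-0.19 to 0.40). The intervals above take the libraries as unpaired. With the replicate number as a block, which the 2 h libraries allow, they were narrower at 2 h, as for UPF1 (-0.17 to 0.02), SMG8 (-0.16 to 0.08) and SMG9 (-0.28 to 0.01), with no factor called. At 0 h, where pairing is not settled, the block gave SMG1 an interval of -0.44 to -0.03, which excludes 0. A p that misses the threshold does not show that CP25 and vehicle acted alike.

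**Figure D5:**
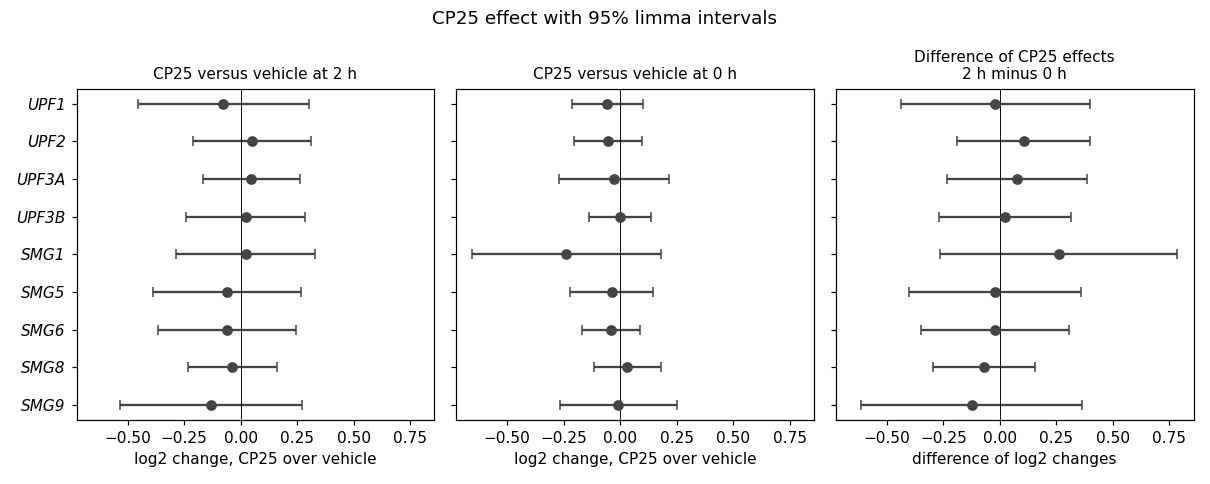
Log2 change of FPKM + 1 in CP25 over vehicle (horizontal axis) for the 9 factors at 2 h, at 0 h and as the difference of the effects, 2 h minus 0 h. Points are estimates and bars 95% intervals from limma without a replicate block, and every interval includes 0. SMG1 lies furthest from 0, at -0.24 at 0 h and 0.26 in the difference.

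No gene of the lists of partners and reported targets passed the test in any of the 3 comparisons. The reported target mRNAs had a median CP25 change of -0.07 at 2 h, with 10 of 11 tested genes below 0, as were 5440 of 11745 genes in all. Their smallest adjusted p at 2 h was about 1 in limma. At 0 h their median was -0.02, with 8 of 13 below 0, as were 6496 of 12365 genes in all. The exon junction list had a median of 0.02 at 2 h and 0.00118 at 0 h, the termination and cap list 0.02 at 2 h and 0.00549 at 0 h, and the accessory list -0.01 at 2 h and -0.00386 at 0 h.

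The genes most like each factor were found by Pearson's r of library-centred log2(FPKM + 1) over the 12 libraries, as a description, since all points share the time and library differences. SMG8 was nearest to YTHDF1 (r = 0.998) and FAM108B1 (0.997), which had log2 ratios of -1.43 and -1.80 in CP25 and -1.39 and -1.71 in vehicle. UPF1 was nearest to EDC4 (0.986) and SLC25A38 (0.98), and UPF2 to THOC1 (0.984) and HELLS (0.982). UPF3B was nearest to EIF5B (0.995) and CCAR1 (0.993), and UPF3A to MCTS1 (0.991) and KIAA1841 (0.987). SMG9 was nearest to ACTRT3 (0.965) and IBA57 (0.96), and SMG1 to MACF1 (0.961) and DOCK5 (0.954). SMG5 was nearest to EXOC7 (0.945) and SUPT6H (0.942), and SMG6 to GBF1 (0.936) and DLG5 (0.931). Among the factors themselves, UPF3A and UPF3B were the most alike (r = 0.972), and SMG8 and UPF3A the most opposed (r = -0.959).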

How the data were processed

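Poly(A) RNA of 12 HEK293T libraries was analysed from the values the authors deposited as FPKM, 1 column per library, in a table for each time. The build was hg19 and the tools named were Bowtie2 2.2.3, Trimmomatic 0.36 and CASAVA 1.8.2, per the submitters' processing notes. Which program and annotation made the FPKM values, and whether strand was used, is not given in the sources used here. A p-value per gene for CP25 against vehicle at each time was deposited by the authors too, and was taken as unadjusted. Depth was estimated from the FPKM step that equals 1 fragment in 1742 genes with a single transcript in GENCODE 29. Its errors are not known, so no counting intervals are given.

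Genes averaging at least 1 FPKM over the libraries of a fit were tested on log2(FPKM + 1), a scale that understates folds of low genes, with limma 3.58.1 in R 4.3.3 (moderated variances with a mean-variance trend, Benjamini-Hochberg adjustment over 11745 genes at 2 h, 12365 at 0 h and 12183 for the difference). All 9 factors passed this filter. Pair ratios were tested in Python 3.11.15. The fits were tested on simulated data with known changes and independent libraries. Of 50 changes of 1.5-fold, 40 were recovered at 2 h, 26 at 0 h and 23 for the difference, so many changes of that size can be missed. Of 50 changes of 2-fold, 48 were recovered at 2 h, 47 at 0 h and 42 for the difference. Same-numbered CP25 and vehicle libraries correlated at 0.354, 0.447 and 0.15 across genes at 2 h, and differently numbered ones at -0.443 to 0.114. Numbers 1 and 2 thus deviated together there, which the labels do not state, while number 3 stood little apart. At 0 h the correlations were 0.261, -0.011 and 0.118, against -0.222 to 0.134 for different numbers, so pairing at 0 h is not settled.

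The factors, the pathway lists, the pairs and the tests were chosen with earlier results of these data known. From each list, the 2 lowest and 2 highest 2 h to 0 h ratios among expressed genes are named. Alternatives were a pseudocount of 0.1, no filter, median centring, a replicate block, no mean-variance trend, the authors' p-values and leaving out each library.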

Additional observations from a re-analysis of the deposited data

How the results depend on the processing

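No factor was called for CP25 under any alternative in any comparison. Over all genes, leaving out 1 library gave 1 to 7 calls at 2 h, 1 to 4 at 0 h and 0 to 3 for the difference, against 1, 0 and 0. Leaving out both libraries numbered 2 at 2 h, chosen after seeing the data, gave 6 calls at 2 h and 1 for the difference, and the authors' p-values gave 0 at 2 h. With the replicate block, limma gave 1, 0 and 0 calls over all genes and 0 among the 9, so it changed no call. Genes below 0.05 before adjustment came to 814 of 11745 at 2 h, 857 of 12365 at 0 h and 1284 of 12183 for the difference. SMG1 at 0 h was among them, with an adjusted p = 0.707 in limma. The median 2 h to 0 h log2 ratio of the 9 ranged from -0.43 to -0.21 in CP25 and from -0.49 to -0.29 in vehicle with 1 library left out, and centring on library medians brought it to 0.0252 in CP25 and -0.0459 in vehicle. The change of SMG5 to SMG6 was 0.0763 to 0.132 with 1 library left out and 0.10 without both libraries numbered 2 at 2 h (adjusted exact permutation p = 0.16). UPF1 to UPF2 ranged from -0.67 to -0.59, SMG8 to SMG9 from -0.76 to -0.63 and UPF3A to UPF3B from -0.00427 to 0.07, with no change of call. With same-numbered libraries of a time kept together, the changes of -0.69 for SMG8 to SMG9, -0.64 for UPF1 to UPF2 and 0.11 for SMG5 to SMG6 lost their calls, which 20 labellings cannot reach (adjusted exact permutation p = 0.2, 0.2 and 0.267). Without a pseudocount all 3 kept them (adjusted exact permutation p = 0.00667 each), at -0.75, -0.66 and 0.15. The cause of these differences was not tested. UPF3A, at 288 to 732 estimated fragments, had the least depth.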
